A study of Mus musculus with 20 samples.

Results

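The 39 genes described here code for proteins of the complement and coagulation cascades that are made in the liver and secreted into the blood. They were listed by name for their function, and all 39 were found among the 20807 autosomal protein-coding genes of the GENCODE basic annotation. For each gene, the peaks of H3K14ac, Setdb1 and Kap1 that shared at least 1 bp with the gene body plus 5 kb on each side (here called the window) were counted in young and in old liver.

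Complement is a chain of plasma proteases and binding proteins that tags microbes and damaged cells, recruits phagocytes and opens pores in membranes. Coagulation is a second protease cascade, which ends in the cleavage of fibrinogen to fibrin and is held in check by protease inhibitors, the protein C system and fibrinolysis. Hepatocytes are the main source of most of these proteins. Acetylation of lysine 14 of histone H3 (H3K14ac) marks active start sites, and Setdb1 is a methyltransferase that writes H3K9 methylation and is brought to chromatin by the corepressor Kap1.

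The series compared young (3 months) with old (21 months) wild-type male C57BL/6 mice, and chromatin was prepared from snap-frozen whole liver. H3K14ac and Setdb1 were immunoprecipitated from 3 livers per age and Kap1 from 2 livers per age, and the comparison asks where the mark and the factors lie at each age and where they lie together. The livers of an age were merged before peaks were called, so each antibody and age has a single list of positions. The sources used here differ on whether all 3 livers of an age entered the merged reads of H3K14ac and of Setdb1. There is therefore no spread between livers, no peak height and no known depth, and no difference between ages could be tested. The lists held 19350 (young) and 20463 (old) peaks for H3K14ac, 50583 and 13877 for Setdb1, and 48915 and 22141 for Kap1, and counts at the members have to be read beside those sizes and beside the share of all genes with the same call. Intervals given below are 95% Wilson intervals and cover counting error only, and 5 pairs of members (C2 and Cfb, C1s1 and C1ra, F7 and F10, F11 and Klkb1, Fga and Fgb) have windows that overlap, so that they can share a peak.

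At 6 members a young and an old H3K14ac peak shared bases. The share of all genes with such an overlap was not counted, and the shares of peaks that overlap are given further on. The shared stretches nearest to a start site are printed for 5 of these members because they are the places where the mark was called at the same position at both ages. The overlap at the sixth, F10, lay at the neighbouring gene Proz and is not shown. The A2m stretch is the only place in the member windows where peaks of different antibodies shared bases. Sequences are from GRCm38 (mm10), written 5′ to 3′ on the strand of the gene, without untranslated exon and with at most 300 bases around the centre. Capitals mark a match to one of the motifs defined in the promoter search further on.
F5, chr1:164151644-164151837, plus strand, upstream flank up to the start of the gene: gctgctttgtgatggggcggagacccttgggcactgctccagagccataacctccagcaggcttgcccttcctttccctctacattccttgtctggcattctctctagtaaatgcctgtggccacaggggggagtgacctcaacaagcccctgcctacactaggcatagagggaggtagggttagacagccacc
Vtn, chr11:78499539-78499838, plus strand, coding exons and the intron between them: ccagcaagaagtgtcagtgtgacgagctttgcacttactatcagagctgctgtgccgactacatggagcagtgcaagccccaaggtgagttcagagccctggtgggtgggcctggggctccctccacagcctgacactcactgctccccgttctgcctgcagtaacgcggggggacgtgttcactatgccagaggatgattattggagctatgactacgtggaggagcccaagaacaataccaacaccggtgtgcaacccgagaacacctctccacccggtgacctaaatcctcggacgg
F12, chr13:55426325-55426624, minus strand, coding exon and intron: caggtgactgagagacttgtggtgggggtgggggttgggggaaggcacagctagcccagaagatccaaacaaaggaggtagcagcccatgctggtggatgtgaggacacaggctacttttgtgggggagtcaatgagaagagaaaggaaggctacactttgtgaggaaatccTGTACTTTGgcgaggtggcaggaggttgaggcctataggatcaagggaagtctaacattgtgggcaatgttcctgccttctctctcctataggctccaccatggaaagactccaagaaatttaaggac
Mbl1, chr14:41151822-41151875, plus strand, first intron: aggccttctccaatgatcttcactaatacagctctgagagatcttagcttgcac
Pros1, chr16:62854429-62854692, plus strand, from the start codon into the first intron: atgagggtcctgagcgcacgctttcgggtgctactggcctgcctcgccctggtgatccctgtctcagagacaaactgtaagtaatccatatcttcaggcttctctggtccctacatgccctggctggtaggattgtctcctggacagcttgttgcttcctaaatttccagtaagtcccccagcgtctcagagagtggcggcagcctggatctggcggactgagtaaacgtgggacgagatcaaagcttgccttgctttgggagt
A2m, chr6:121664269-121664374, plus strand, intron, shared by an old Setdb1 and a young Kap1 peak: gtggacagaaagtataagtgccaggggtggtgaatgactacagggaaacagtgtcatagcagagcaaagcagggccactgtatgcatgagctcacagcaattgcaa
Among these stretches only that of F12 held a motif match, an HNF4-type match on the opposite strand, in capitals, that begins at base 173.

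H3K14ac was called in the window of 18 of the 39 members in young liver (46.2%, interval 31.6% to 61.4%) and of 19 in old liver (48.7%, 33.9% to 63.8%). The same call was made for 33.6% of all autosomal protein-coding genes in young and 42.0% in old liver, and both values lay inside the intervals of the members. Setdb1 was called in 10 member windows in young liver (25.6%, 14.6% to 41.1%) against 44.9% of all genes, and in 3 in old liver (7.69%, 2.65% to 20.3%) against 18.5%. Kap1 was called in 2 member windows in young liver (5.13%, 1.42% to 16.9%) against 35.2% of all genes, and in 3 in old liver (7.69%, 2.65% to 20.3%) against 19.8%. The share of members was thus above the background for H3K14ac and below it for both factors at both ages, and the young Setdb1 and young Kap1 backgrounds lay above the intervals of the members. Against genes whose windows were as long as those of the members (13.1 to 97.8 kb), the backgrounds were 32.7%, 41.2%, 40.7%, 14%, 31.7% and 17.0% in the same order, so that only the young Kap1 value stayed outside the interval of the members.

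**Figure D1:**
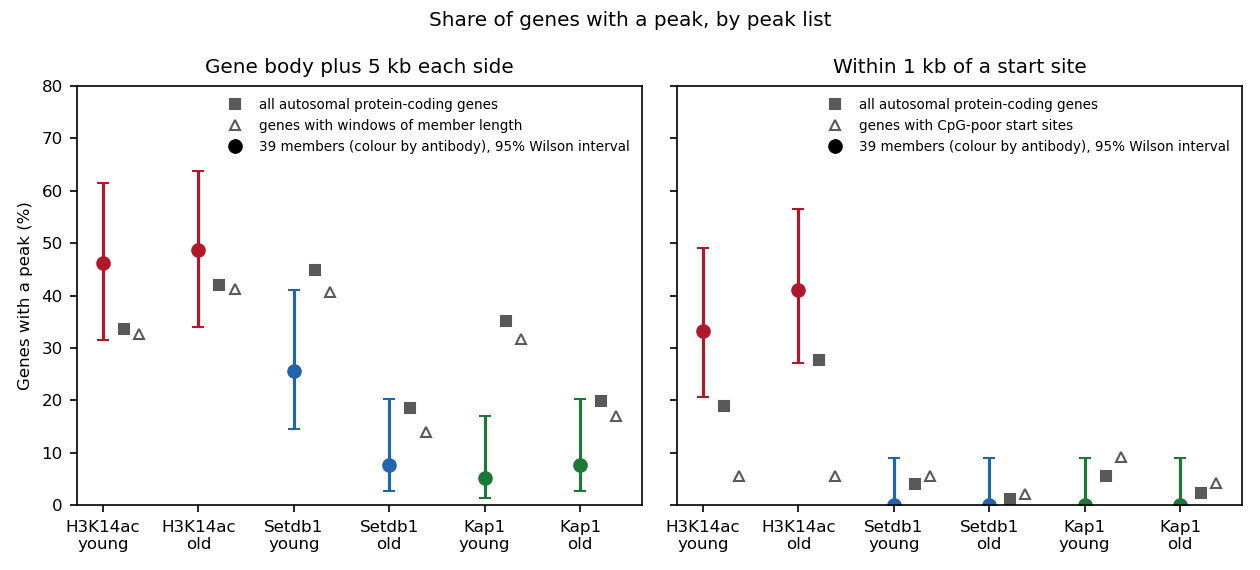
The y axis gives the percent of genes with a peak in the window (left) or within 1 kb of a start site (right) for each of the 6 peak lists on the x axis; circles with bars are the 39 members with 95% Wilson intervals, squares all autosomal protein-coding genes, and triangles genes with windows of member length (left) or with CpG-poor start sites (right). At start sites H3K14ac was called at 33.3% of the members in young and 41.0% in old liver, whereas Setdb1 and Kap1 were at 0 in all 4 lists.

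Start sites give a measure that does not grow with gene length. A peak within 1 kb of an annotated start site was present for H3K14ac at 13 members in young liver (33.3%, 20.6% to 49.0%) and at 16 in old liver (41.0%, 27.1% to 56.6%), against 19.0% and 27.6% of all genes. The young background lay just below the interval and the old one just inside it. No member had a Setdb1 or a Kap1 peak there in any of the 4 lists (0 of 39, for which the upper Wilson bound is 8.97%), and the background was also low, at 4.05% and 1.20% for Setdb1 and 5.48% and 2.36% for Kap1 in young and old liver. All 4 of these shares lie under that bound, so with 39 genes a share lower than that of all genes was not detectable. Among genes with CpG-poor start sites (defined further on) the shares were 5.60% and 2.02% for Setdb1 and 9.08% and 4.27% for Kap1. The young Kap1 value lay just above the bound for all 39 members. Only 35 members had such start sites, for which the bound is higher, so no lower share can be read from it.

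Distinct peaks were then counted over the 1388.9 kb that the member windows cover together. H3K14ac had 38 young and 43 old peaks there, or 2.74 and 3.1 per 100 kb, against 0.976 and 1.18 per 100 kb over all protein-coding windows. Mbl1 alone held 9 and 8 of these peaks, and without its window the density was 2.12 and 2.55 per 100 kb. Setdb1 had 14 young and 5 old peaks (1.01 and 0.36 per 100 kb against 1.95 and 0.515), and Kap1 had 5 and 3 (0.36 and 0.216 per 100 kb against 1.69 and 0.753). Exact 95% Poisson intervals of the member densities, which cover counting error only, were 1.94 to 3.76 and 2.24 to 4.17 for H3K14ac, 0.551 to 1.69 and 0.117 to 0.84 for Setdb1, and 0.117 to 0.84 and 0.0445 to 0.631 for Kap1. The density over all windows lay below the interval for H3K14ac at both ages, above it for young Setdb1 and for Kap1 at both ages, and inside it for old Setdb1. Over windows as long as those of the members, the densities were 1.56 and 1.91 for H3K14ac, 1.86 and 0.489 for Setdb1 and 2.17 and 0.994 for Kap1, with the same places relative to the intervals. Without Mbl1 the H3K14ac intervals were 1.42 to 3.04 and 1.78 to 3.55, which hold the densities of the windows of member length but not those of all windows.

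**Figure D2:**
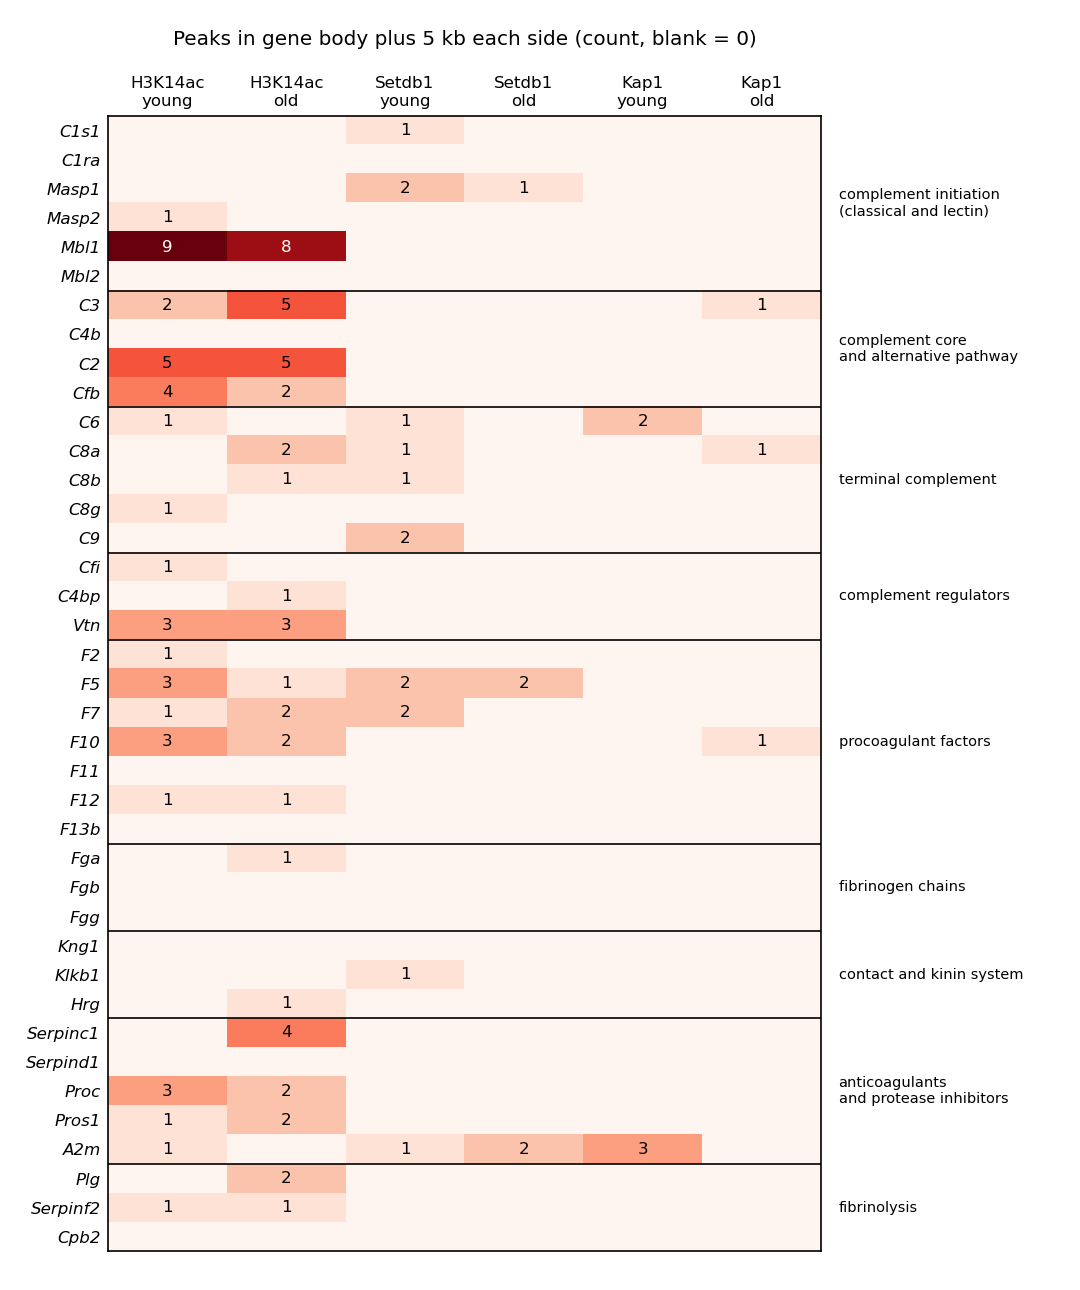
Each row is a member, grouped by role, each column a peak list, and the number and the shade give the peaks in the gene body plus 5 kb on each side, with blank cells at 0. The counts of Mbl1 are 9 and 8 for H3K14ac, most factor cells are blank, and C6, C8a and A2m have peaks of both Setdb1 and Kap1.

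Among the genes that start complement, Mbl1 stood apart. It codes for a mannose-binding lectin, which recognises sugars on microbes and activates the lectin pathway, and its window of 18.1 kb held 9 young and 8 old H3K14ac peaks and no Setdb1 or Kap1 peak. As many peaks or more at each age were found for 65 of the 20807 genes (0.312%). Mbl1 was singled out for its counts, so the rank only describes it. Many of its peaks lay close together, so that the count depends on how peaks are split. When peaks within 1000 bp were merged first, the H3K14ac peaks of all member windows fell from 38 to 26 (young) and from 43 to 34 (old). The young peaks ran from the first intron to beyond the last exon, and 5 of them were wider than 500 bp (716 to 1838 bp), the width of nearly all other H3K14ac peaks. The old peaks started further upstream, with 2 of them 4126 and 2191 bp before the start site and 1 over the start site itself (midpoint 167 bp downstream). Young and old peaks made 8 overlapping pairs, the largest sharing 906 bp from the last exon into the downstream flank and the smallest 17 bp. Masp2, a protease that cleaves C4 and C2 once mannose-binding lectin has bound, had 1 young peak 670 bp downstream of its start and none in old liver. Masp1, its partner protease, had no H3K14ac peak but was among the 3 members with Setdb1 peaks at both ages, with 2 young peaks and 1 old peak, none of them shared. C1s1, a protease of the classical pathway, had 1 young Setdb1 peak 3419 bp upstream of its start. C1ra, the other C1 protease, and Mbl2, the second mannose-binding lectin, had no peak in any list. A second copy elsewhere in the genome was found for 8.57% of the 200 bp tiles of the C1ra window.

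**Figure D3:**
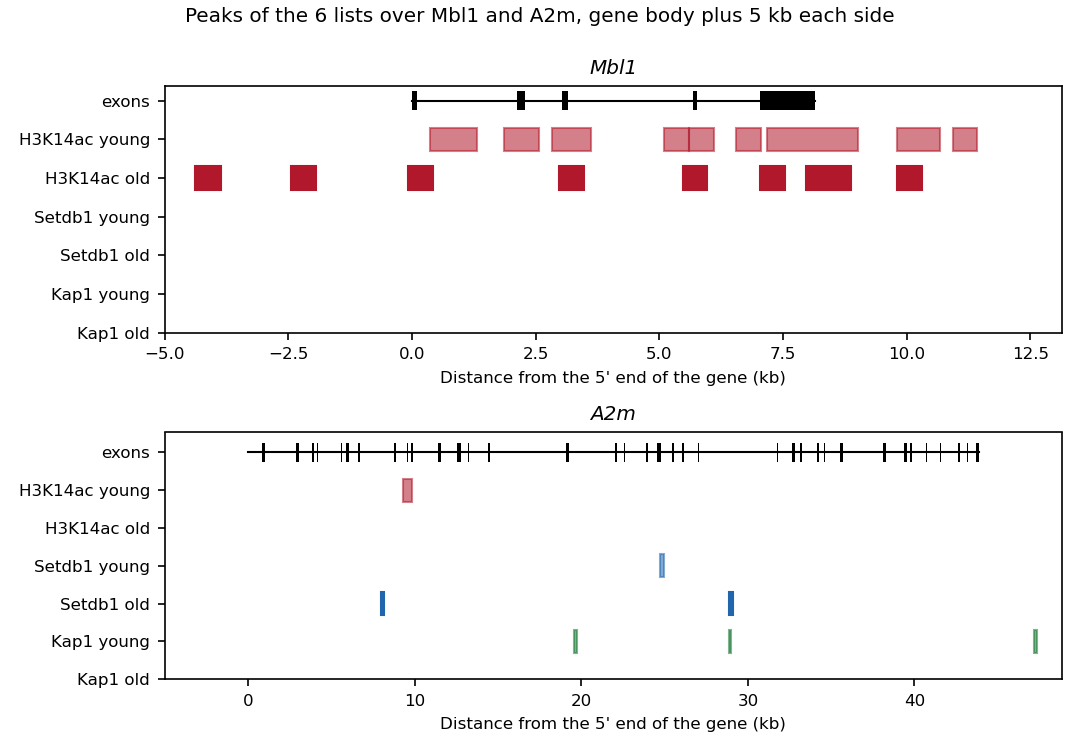
Both maps give the distance from the 5′ end of the gene in kb on the x axis, with exons as black boxes and the peaks of each list as coloured boxes on a row of their own (paler for young liver). Mbl1 (top) is covered by 9 young and 8 old H3K14ac peaks and no factor peak, and A2m (bottom) carries 1 H3K14ac, 3 Setdb1 and 3 Kap1 peaks over both ages, with an old Setdb1 and a young Kap1 peak at the same place.

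H3K14ac was called in the windows of 3 of the 4 central components at each age, beside 33.6% and 42.0% of all genes, but 4 genes are too few to read as a difference and C2 and Cfb share peaks. C3, the protein on which all complement pathways converge, had 2 young and 5 old H3K14ac peaks. Both young peaks lay within 2510 bp downstream of the start, and the old ones were spread from 483 bp downstream of it through the coding exons to the downstream flank. No young and old peak of C3 shared a base, although the nearest were 19 bp apart. C3 also carried an old Kap1 peak (chr17:57219684-57219833, intron), 1161 bp from an old H3K14ac peak, which was the smallest distance between the mark and a factor in any member window at one age. C2, which together with C4 forms the C3 convertase of the classical pathway, and Cfb (complement factor B), its counterpart of the alternative pathway, are neighbours and shared peaks: C2 was assigned 5 young and 5 old peaks and Cfb 4 young and 2 old, with a smallest young to old gap of 77 bp for both. Around Cfb, 2 of the young peaks lay on either side of the start site (447 bp downstream and 445 bp upstream), and the nearer old peak lay 1242 bp downstream. Of the peaks of C2, the young one at a start site was nearer to the start of Zbtb12 (298 bp) than to that of C2 (690 bp), the old one at a start site lay 473 bp downstream in a coding exon, where the gene model Gm20547 also starts, and 2 old ones upstream lay at the start of Ehmt2. C4b had no peak in any list. Of the 200 bp tiles of its window, 7.87% had a second copy elsewhere in the genome, and their part in the missing calls was not tested.

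The 5 listed genes of the membrane attack complex, which forms the pore at the end of complement, included 4 of the 10 members with a Setdb1 call in young liver. Setdb1 was called in 4 of 5 in young and in 0 of 5 in old liver, beside 44.9% and 18.5% of all genes, and H3K14ac in 2 of 5 at each age, in different genes, beside 33.6% and 42.0%. With 5 genes these counts cannot be read as a difference from the background. C7 and Hc, terminal complement genes outside the members, also had Setdb1 peaks, C7 2 young and 2 old ones and Hc 2 young ones. The absence of old Setdb1 calls thus held for the 5 listed genes and for Hc, but not for C7. C6 carried 1 young H3K14ac, 1 young Setdb1 and 2 young Kap1 peaks and no old peak at all. C8a had 1 young Setdb1 peak in a coding exon and, in old liver, 2 H3K14ac peaks and 1 Kap1 peak in introns, the last 429 bp from the start of the overlapping gene Gm17662. C8b had 1 young Setdb1 peak 36153 bp into the gene and 1 old H3K14ac peak 1124 bp downstream of its start. C9, the subunit that polymerises to line the pore, had 2 young Setdb1 peaks and nothing else. C8g had a single young H3K14ac peak, which overlapped the start of the neighbouring gene Fbxw5 (229 bp away). No gene of this group was marked by H3K14ac at both ages. The windows of C6 (97.8 kb), C8a (70.7 kb) and C9 (63.4 kb) are among the longer ones, against a median of 29.4 kb over the members.

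Of the regulators, Vtn (vitronectin), an inhibitor of pore assembly that also stabilises a plasminogen activator inhibitor, had 3 young and 3 old H3K14ac peaks and no factor peak. A young and an old peak over its first exons, with midpoints 563 and 572 bp downstream of the start, shared 491 of their 500 bp, so that the call hardly moved between the ages. A further young peak, 723 bp upstream, was also within 1 kb of the start of Sarm1. C4bp, which binds C4b and serves as a cofactor for its cleavage, had 1 old H3K14ac peak 4417 bp into the gene. Cfi (complement factor I), the protease that cleaves C3b and C4b, had 1 young H3K14ac peak in its downstream flank, which lay 270 bp from the start of Pla2g12a.

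Among the 7 procoagulant factors, 4 had H3K14ac at a start site in young liver and 4 in old liver, beside 19.0% and 27.6% of all genes, and 7 genes are too few to read as a difference. F5, the cofactor of factor X in the prothrombinase complex, carried a young and an old peak over its start (midpoints 55 bp downstream and 64 bp upstream) that shared 381 bp. It also had 2 further young H3K14ac peaks within introns and, at both ages, 2 Setdb1 peaks, none of which overlapped another peak. F12, which starts the contact pathway, carried 1 young and 1 old peak (225 and 385 bp downstream) that shared 340 bp, and no other peak. F10, the protease that cleaves prothrombin, had a young peak 144 bp and an old peak 804 bp downstream of a start site, 676 bp apart, and an old Kap1 peak in an intron. Its other H3K14ac peaks, including the only overlapping pair, lay 190 to 674 bp from the start of Proz. F7, the protease that tissue factor activates, had an old H3K14ac peak 542 bp upstream of its start, and its other H3K14ac peaks were those at the start of F10. It also had 2 young Setdb1 peaks. F2 (prothrombin) had 1 young H3K14ac peak 483 bp downstream of its start and none in old liver. F11 and F13b had no peak in any list.

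The fibrinogen genes code for the most abundant protein of the clotting system. Fga had 1 old H3K14ac peak 627 bp downstream of its start, and Fgb and Fgg had no peak of any antibody at either age, although the 3 genes lie side by side. For comparison, 47.0% of all genes had no H3K14ac peak at either age, and 3 genes are too few to set against that share. In the contact and kinin system, Hrg (histidine-rich glycoprotein) had 1 old H3K14ac peak 1060 bp downstream of its start, Klkb1 (plasma prekallikrein) had 1 young Setdb1 peak, and Kng1 (kininogen) had none, with a second copy for 4.09% of the 200 bp tiles of its window.

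Among the anticoagulants, Serpinc1 (antithrombin), the main inhibitor of thrombin and factor Xa, had H3K14ac peaks in the old list only. It had no H3K14ac peak in young liver and 4 in old liver, at 361, 3549, 9195 and 10450 bp downstream of a start site, all in introns. As many old peaks or more with no young peak were found for 134 of the 20807 genes (0.644%), a pattern looked up after the values of Serpinc1 were seen. All 4 peaks stood between 53.5% and 72.2% of the way through the deposited list, so that none is counted in its first 50%. Pros1 (protein S), the cofactor of activated protein C, had a young and an old peak over its start (midpoints 169 and 135 bp downstream) that shared 466 bp, and a second old peak 4357 bp downstream. Proc (protein C) had 3 young and 2 old H3K14ac peaks with no shared base and a smallest gap of 107 bp. Serpind1 (heparin cofactor II) had no peak in any list.

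A2m (alpha-2-macroglobulin), which traps proteases in a molecular cage, was the member with most Kap1 peaks and the only one with factor peaks in 3 of the 4 factor lists. It had 1 young H3K14ac peak, 1 young and 2 old Setdb1 peaks and 3 young Kap1 peaks. The old Setdb1 peak chr6:121664269-121664468 and the young Kap1 peak chr6:121664225-121664374 shared the 106 bp printed above, but the peaks come from different ages, and at the same age the factors did not overlap at A2m. Of the 200 bp tiles of its window, 6.32% had a second copy elsewhere in the genome.

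In fibrinolysis, Serpinf2 (alpha-2-antiplasmin) had an old H3K14ac peak 330 bp downstream of a start site and a young one 4835 bp upstream, within the neighbouring gene Wdr81. Plg (plasminogen), the zymogen of the protease that dissolves fibrin, had 2 old H3K14ac peaks, 1513 and 7733 bp downstream, and no young one. Cpb2, which codes for the carboxypeptidase that slows fibrinolysis, had no peak in any list.

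**Figure D4:**
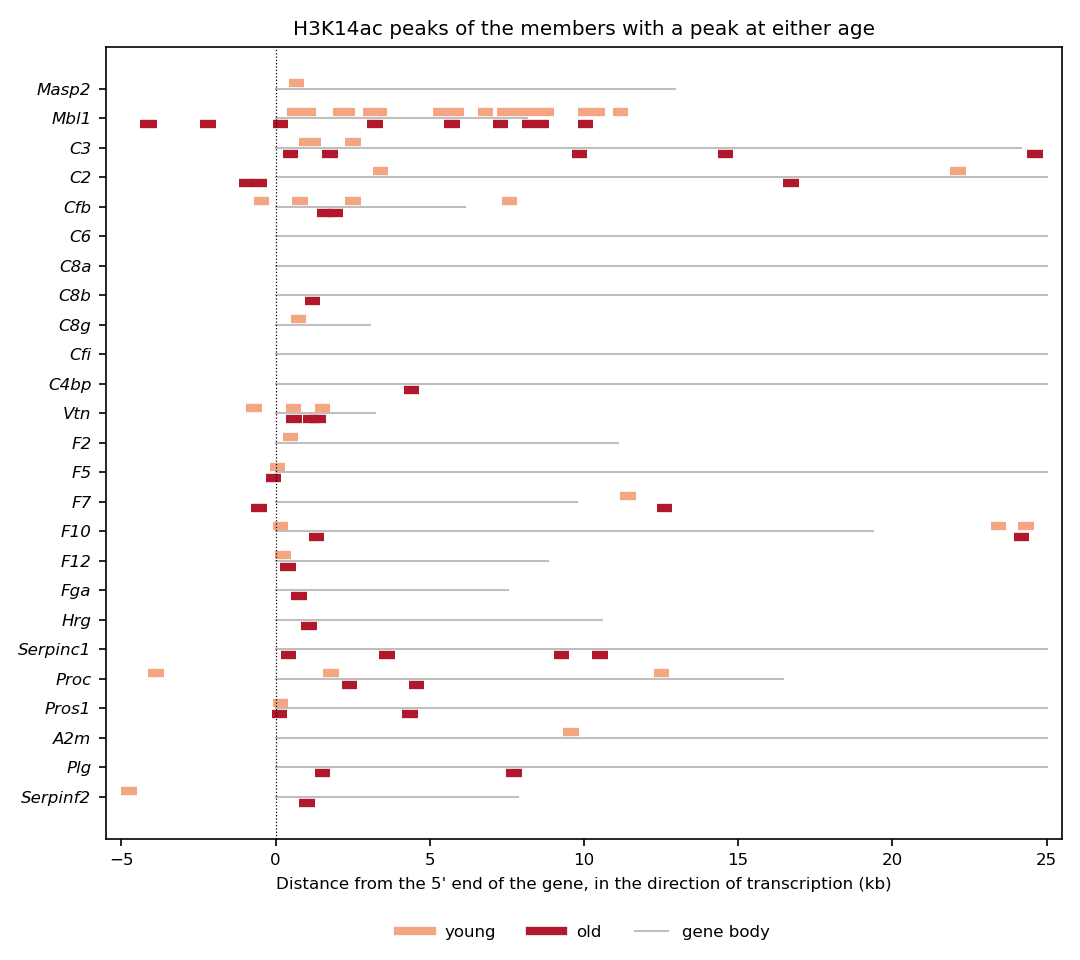
Each row is one of the 25 members with an H3K14ac peak at either age, the x axis gives the distance from the 5′ end of the gene in kb along the direction of transcription up to 25 kb, bars are peaks (pale for young, dark for old) and the grey line is the gene body. Most peaks near the 5′ end lie downstream of it, and 11 peaks beyond the axis are not drawn; genes with several start sites can have a start nearer to a peak than the 5′ end.

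Counted over all members, H3K14ac was called in the window at both ages for 12, in young liver only for 6, in old liver only for 7 and at neither age for 14 (30.8%, 15.4%, 17.9% and 35.9%), against 22.6%, 11%, 19.4% and 47.0% of all genes. At start sites the counts were 10 (C2, C3, Cfb, Mbl1, Vtn, F5, F10, F12, Proc and Pros1), 3 (C8g, Masp2 and F2), 6 (C8b, F7, Fga, Serpinc1, Serpinf2 and Hrg) and 20, against 12%, 7.06%, 15.7% and 65.3% of all genes. Beside all genes, members with the mark at a start site in 1 age only (7.69% in young and 15.4% in old liver) were near the background, and those marked at both ages (25.6%, interval 14.6% to 41.1%) were above it. Beside the genes with CpG-poor start sites described further on, the shares of which were 1.95% at both ages, 3.50% in young liver only and 3.65% in old liver only, the members marked at both ages and those marked in old liver only (interval 7.25% to 29.7%) both lay above the background. Calls at both ages did not mean calls at the same place. Of the 38 young H3K14ac peaks in the member windows, 13 overlapped an old one (34.2%), and of the 43 old peaks 13 overlapped a young one (30.2%), against 28.7% and 24.1% over all windows. These made 15 pairs, of which 8 lay at Mbl1, 3 at Vtn and 1 each at F5, F12, Pros1 and F10. Without Mbl1, left out after its values were seen, 6 of 29 young peaks (20.7%, 9.85% to 38.4%) and 7 of 35 old peaks (20%, 10% to 35.9%) overlapped one of the other age, so that the shares lay below the background in place of above it, with the background inside both intervals.

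Setdb1 was called at both ages for 3 members (F5, Masp1 and A2m). In young liver only it was called for 7 (C6, C8a, C8b, C9, C1s1, F7 and Klkb1). For none was it called in old liver only, and for 29 at neither age. These are 7.69%, 17.9%, 0% and 74.4% of the members, against 12.9%, 32.1%, 5.67% and 49.4% of all genes. Genes with windows of member length gave 7.60%, 33.1%, 6.41% and 52.9%, so that the share at both ages was alike. Kap1 was called at both ages for none and in young liver only for 2 (C6 and A2m). In old liver only it was called for 3 (C3, C8a and F10), and at neither age for 34. These are 0%, 5.13%, 7.69% and 87.2% of the members, against 13.1%, 22.1%, 6.63% and 58.1% of all genes. Genes with windows of member length gave 10.4%, 21.3%, 6.60% and 61.7%. No young and old peak of either factor overlapped in a member window. The share of peaks with a partner at the other age over all windows was 0.797% (young) and 3.01% (old) for Setdb1, and for Kap1 it was 7.09% and 16.1%. Counted together, 12 members had a Setdb1 or Kap1 peak in any list (30.8%, 18.6% to 46.4%), against 64.9% of all genes. C4b, C1ra, Mbl2, F11, F13b, Fgb, Fgg, Kng1, Serpind1 and Cpb2 had no peak in any of the 6 lists (25.6% of the members against 18.7% of all genes).

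**Figure D5:**
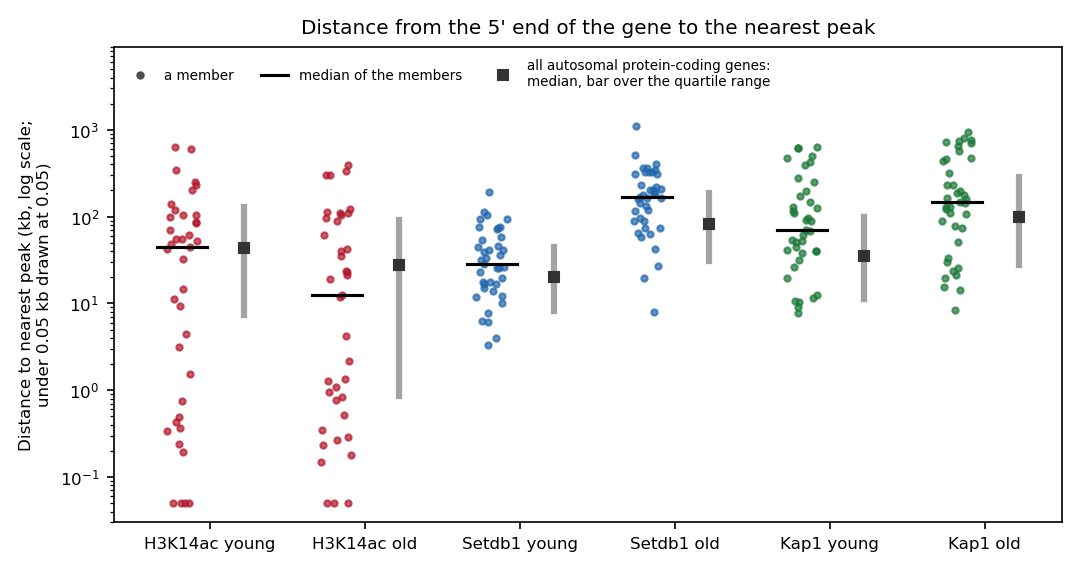
The y axis gives, on a log scale in kb, the distance from the 5′ end of the gene to the nearest peak of each list; points are the 39 members, black lines their medians, and squares with bars the median and quartile range of all autosomal protein-coding genes. The medians of the members lie above those of all genes in each of the 4 Setdb1 and Kap1 lists.

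Distance to the nearest peak needs no window, and by the median the members lay further from both factors. The median distance from the 5′ end of a member to the nearest Setdb1 peak was 28.2 kb in young and 169.7 kb in old liver, against 20.3 and 82.7 kb for all genes. For Kap1 it was 70.6 and 145.8 kb against 35.6 and 99.9 kb. For H3K14ac it was 44.5 and 12.4 kb against 44 and 27.8 kb, so that the young medians were alike. The first quartiles were 0.621 kb for the members and 7.37 kb for all genes in young liver and 0.644 and 0.848 kb in old liver. For Setdb1 and Kap1 the quartile ranges of the members and of all genes overlapped at both ages. For young Setdb1 they were 15.8 to 55.8 kb and 8.26 to 44.1 kb. No interval was computed for the medians.

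The mark and the factors were then compared by position. None of the 38 young or 43 old H3K14ac peaks overlapped a Setdb1 or Kap1 peak of the same age, and none of the 14 young or 5 old Setdb1 peaks overlapped a Kap1 peak. Over all protein-coding windows, 1.89% of young and 0.525% of old H3K14ac peaks overlapped a Setdb1 peak, and 8.45% and 4.19% a Kap1 peak. Of the Setdb1 peaks there, 1.79% (young) and 1.89% (old) overlapped a Kap1 peak. At these background shares few overlaps would be counted among so few peaks, and the absence of overlaps cannot be read as particular to the members. F5 had H3K14ac and Setdb1 at both ages and is the member where the mark, over the start site, and a factor, within the gene, were both called in young and in old liver. The smallest distance between an H3K14ac and a Setdb1 peak of one age in a member window was 2323 bp in young liver and 41723 bp, at F5, in old liver.

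Most H3K14ac peaks near a start site lay downstream of it. Within 2 kb of a start of their own gene, 13 of 16 young peaks (81.2%) and 19 of 21 old peaks (90.5%) of the members were downstream, with a median of 436 and 627 bp, against 69.2% and 73.0% and medians of 197 and 192 bp over all genes. Of the 42 pairs of a member and a young H3K14ac peak, 10 were intronic, 19 touched an exon and 13 lay in a flank, and of the 46 pairs with an old peak 15, 20 and 11. Of the distinct peaks, 3 young and 3 old ones lay within 1 kb of a start of another protein-coding gene and of no member. Another 3 young and 1 old peak lay within 1 kb of both a member and another gene, so that the gene they belong to is uncertain. Introns held 7 of the 14 Setdb1 peaks in young liver and 4 of the 5 in old liver, and for Kap1 4 of 5 and 3 of 3. The old Setdb1 peak of Masp1 was soft-masked (repeat sequence) over its whole length. None of the member peaks, in any of the 6 lists, had a second copy in the genome at 95% identity over 90% of its length. Only uniquely aligned reads were kept before peaks were called, so few such peaks could arise, and the share over all peaks was not counted.

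The start sites of the members are poor in CpG. The ratio of observed to expected CpG within 500 bp of the start, taking the highest of a gene's start sites, had a median of 0.21 over the members and of 0.62 over all genes, and it was below 0.4 for 35 of 39 members and for 34.9% of all genes. Among genes with a ratio below 0.4, H3K14ac was called at the start site of 10 of 35 members (28.6%) in young and 14 of 35 (40.0%) in old liver, against 5.45% and 5.60% of 7267 genes. Among genes at or above 0.4, it was called at 3 and 2 of the 4 members, against 26.3% and 39.5% of 13540 genes. Beside other genes with CpG-poor start sites, the members thus carried the mark at start sites more often at both ages. In the window, H3K14ac was called for 20.4% (young) and 21.4% (old) of these CpG-poor genes, below the intervals of the members (31.6% to 61.4% and 33.9% to 63.8%). Of the same genes, 37.6% (young) and 16.1% (old) had a Setdb1 peak in the window, against 25.6% and 7.69% of the members. Both values lay inside the intervals of the members (14.6% to 41.1% and 2.65% to 20.3%). A Kap1 peak was present for 36.3% and 21.4%, against 5.13% and 7.69% of the members. These values lay above the intervals (1.42% to 16.9% and 2.65% to 20.3%), the old one only just. The window intervals are of all 39 members, of which 35 had CpG-poor start sites.

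Promoter sequence, from 250 bases before to 50 after the start in a RefSeq table for GRCm38.p6, was found for 30 of the 39 members (32 promoters). C4b, C2, Cfb, Cfi, Masp1, Plg, Kng1, Proc and A2m had no entry. Motifs were searched on both strands. The C/EBP-type motif TTGCNNAA was present in 11 member promoters (34.4%), among them C3, C9, Fga, Fgb, Hrg and Serpinc1, against 10.9% of 31396 promoters. The HNF1 half-site GTTAAT was present in 9 (28.1%), among them F2, Fga, Fgb, C8a and C8b, against 7.12%, and the STAT-type motif TTCNNNGAA in 7 (21.9%) against 8.35%. Among the 16013 promoters of the table with a CpG ratio below 0.4, the shares were 13.8%, 9.80% and 10.1%. The HNF4-type motif CAAAGTNCA was present in 1 (3.12% against 1.44%), and the Onecut motif ATCGAT and the E-box CACGTG in none (0.917% and 7.14% of all promoters). Among the promoters with a CpG ratio below 0.4, these 3 motifs were present in 1.97%, 0.749% and 3.98%. At such shares few matches would be counted in 32 promoters, so their absence cannot be read as particular to the members. The motifs do not contain one another, and a match describes the letters only. C1ra, Fga and Fgb each matched 3 of these motifs, and of these Fga had an old H3K14ac peak at its start site whereas C1ra and Fgb had no peak in any list. F5, F10, F12 and Mbl1, marked at a start site at both ages, had none of the motifs. Of the other members marked in that way with a promoter in the table, C3 held the C/EBP-type motif, Vtn the HNF1 half-site and the STAT-type motif, and Pros1 the STAT-type motif.

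The label of the tissue was checked against other genes. Of 29 further hepatocyte plasma protein genes (apolipoproteins, haptoglobin, transthyretin and others), 19 had an H3K14ac peak in the window at each age (65.5%), and 14 in young and 11 in old liver had one at a start site (48.3% and 37.9%). Markers of Kupffer cells had none in 9 genes at either age, those of sinusoidal endothelium 1 and 2 of 8, stellate cells 3 and 2 of 8, lymphocytes 1 and 3 of 8, and the neuron and muscle genes, which liver should not use, 3 of 10 and 2 of 10 at each age. With 33.6% and 42.0% of all genes called, and lists of 8 to 10 genes, these window counts hardly set the marker lists apart from genes at large. At start sites the marker lists had 0 to 2 genes each. In whole liver, fewer cells of a type and less mark per cell cannot be told apart.

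Other genes of the same pathways, 48 of 49 of which were found, include receptors, regulators on cell surfaces and factors made outside hepatocytes. Of these, 14 (29.2%) had an H3K14ac peak in the window in young and 20 (41.7%) in old liver, and 4 (8.33%) and 10 (20.8%) had one at a start site, at or below the background. Setdb1 was called for 18 (37.5%) and 9 (18.8%) and Kap1 for 18 (37.5%) and 7 (14.6%), nearer to the background than the liver-secreted members. The mark at start sites of these genes at both ages was limited to C1rl, Cd46, Cr1l and Proz.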

How the data were processed

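ChIP-Seq peak lists of H3K14ac, Setdb1 and Kap1 from young and old mouse liver were used. The authors aligned reads to mm10 (GRCm38) with BWA, as the submitters' processing notes also name, removed duplicates with Picard, kept unique high-quality alignments, merged livers and used PeakSeq with input controls to call peaks. The 6 deposited lists give peak start and end positions only, with no score or depth. Sequence with near-identical copies can lack calls where reads do not align uniquely, which the lists cannot show. Sequential ChIP libraries were not analysed here.

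Positions were written 1-based. Windows and start sites came from GENCODE basic M21, and overlap needed 1 bp. Overlap code was tested on simulated data (300 of 300 planted windows recovered) and checked against bedtools 2.31.1 over 20807 windows and 6 lists (0 differed). Second copies were sought with minimap2 2.31 (200 bp tiles, and peaks up to their central 500 bp; 95% identity, 90% length). Scripts ran under Python 3.11.15, with matplotlib 3.10.9 for plots and scipy 1.17.1 for intervals. No test was run, since livers were pooled.

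All 39 members are counted; described in full are those with H3K14ac at a start site, with a factor at both ages, with most peaks, with overlapping antibodies or with no peak, and all others are given briefly. The members and gene lists were chosen with earlier results of these data known. Alternatives were wider and narrower windows and start sites, other overlap rules, merged or resized peaks, the first 50% of each list, and other background genes.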

Additional observations from a re-analysis of the deposited data

How the results depend on the processing

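No paired analysis was possible because the livers of an age were merged before peaks were called, so the lists carry no replicate, and for the same reason no liver could be left out. Of 79 alternative values for the counts at the members, 29 were 0 where the reported count was 0, which says nothing about stability, and 42 of the other 50 stayed within 1.5 times the reported count. With the first 50% of each list in its deposited order, which may not be a ranking, the H3K14ac start sites in old liver fell from 16 to 10 members and the windows from 19 to 15. In young liver they stayed at 13 and 18, so that the old counts lay below the young ones in place of above them. The Setdb1 windows in young liver fell from 10 to 5 and the Kap1 windows in old liver from 3 to 0. With 10 kb on each side, Kap1 was called for 4 members in young liver in place of 2, and within 5 kb of a start site Setdb1 was called for 2 in young liver in place of 0. Within 500 bp of a start site, H3K14ac was called for 12 members in young and 11 in old liver. The old count thus lay below the young one there too, whereas within 5 kb the counts were 14 and 18. The 15 overlapping young and old H3K14ac pairs became 27 when gaps of as much as 500 bp were allowed and 9 when only the central 200 bp of each peak was used, and 7 without Mbl1. The background of genes with CpG-poor start sites and the count without Mbl1 were added after seeing the data. With 39 members, no peak heights and unknown depth, a missing peak does not show that the mark or factor was absent, and the young and old lists of Setdb1 and Kap1 differ in size.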

Other observations

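Other plasma protein genes of hepatocytes were counted in the same way. Of 29 such genes, 9 had H3K14ac at a start site at both ages (31.0%, against 12% of all genes and 25.6% of the members), namely Apoa1, Apoa2, Apob, Apoc3, Apoe, Fetub, Hpx, Itih1 and Rbp4, which carry lipids, haem or retinol, inhibit proteases or bind minerals in plasma. Ttr and Cp had it in old liver only, and Apoc1, Itih3, Orm1, Serpina3k and Azgp1 in young liver only. Setdb1 was called in the window of 3 of the 29 in young liver (10.3%; Apob, Cp and Rbp4) and of 1 in old liver (3.45%; Hpx), and Kap1 of 1 (3.45%; Hpx) and of 2 (6.90%; Hpx and Cp). The shares of all genes were 44.9% and 18.5% for Setdb1 and 35.2% and 19.8% for Kap1, and those of the complement and coagulation genes, 25.6% and 7.69%, and 5.13% and 7.69%, were below them as well. No peak of either factor lay at a start site of these genes.

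Among the other genes of the complement pathway, the neighbours Cd46, Cr2 and Cr1l, which code for complement receptors and regulators on cell surfaces, differed from the liver-secreted members. Cd46 had 9 young and 11 old H3K14ac peaks in its window together with 17 young and 11 old Kap1 peaks. Cr2 had 8 and 9 H3K14ac and 16 and 11 Kap1 peaks, and Cr1l 8 and 9 H3K14ac and 12 and 7 Kap1 peaks. Their windows lie close together and may share peaks. No member had more than 3 Kap1 peaks in either list. These genes were singled out after their values were seen.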
